A study of Mus musculus with 18 samples.

Results

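Mouse eosinophils were exposed to IFN-γ, to heat-inactivated E. coli, or to both together, and the joint response was set against the sum of the separate responses. The experiment takes the 12 libraries of a 2 x 2 layout out of 18 in the series, chosen by their labels: 3 libraries each of unstimulated cells (a to c), cells with E. coli, cells with IFN-γ and cells with both, here called joint. The eosinophils came from the peritoneal cavity of C57BL/6 mice of the NJ.1638 line, which carries an Il5 transgene, and were purified by removing cells that bound beads against Thy1.2 or B220. The cells were kept in DMEM with serum, stimulated cells for 18 h, and IFN-γ was used at 50 ng/ml. The time in culture of the unstimulated cells is not stated. The transgene gives an excess of eosinophils in these mice. The titles give the unstimulated libraries letters, while other labels number them. Whether either matches the numbers of the stimulated libraries is not known, and they were not paired here.

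IFN-γ signals through JAK kinases to genes of antigen presentation, antiviral defence and guanylate-binding proteins, while E. coli presents lipopolysaccharide to TLR4 and drives NF-κB and AP-1 target genes such as neutrophil-attracting chemokines. Macrophages exposed to both express some of these genes far more strongly than with either stimulus, which is a textbook feature of their activation. Eosinophils carry receptors for both stimuli and release stored and newly made cytokines.

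Totals on genes were 1562034 to 2419241 counts in unstimulated libraries, 1980073 to 2734041 for the bacteria alone, 1654831 to 2006059 for the cytokine alone and 1523808 to 1970637 in joint libraries. Levels are TMM-scaled CPM, and a group held at 3 counts or fewer, which is 1.00 to 2.19 CPM, is given no fold size. Genes of the eosinophil list fitted the label in part. The sum of its 13 markers lay between 4365 and 6729 CPM in each of the 12 libraries, with the eotaxin receptor gene Ccr3 or the lipoxygenase gene Alox15 most abundant, and Siglecf and Il5ra were present in all groups. Of its granule protein genes, Prg2 had group means of 13.4 to 29.5 CPM and Ear6 of 18.7 to 87.5, while Epx, Prg3, Ear1 and Ear2 were near the floor, with no group mean above 3.47 CPM. Of the 9 tested eosinophil markers, the 1 called for an interaction was the integrin gene Itgax (departure -0.73 ± 0.17, adjusted p 0.0194), and none was called without unstimulated a, E. coli 1 or joint 2.

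The test asks whether the effect of both stimuli departs from the E. coli effect plus the IFN-γ effect, all as log2 differences from unstimulated cells. A departure of 0 means that the effects add up. edgeR called a departure for 457 of 9883 tested genes (4.62%) at an adjusted p under 0.05, 255 of them positive (2.58% of tested genes) and 202 negative (2.04%), while the median over all tested genes was 0.0042. Errors after ± are approximate standard errors of log2 values from 3 libraries a group. These totals depend on single libraries. The 457 became 266 without unstimulated a, 286 without E. coli 1, 270 without E. coli 2 and 294 without joint 2, and 562 without E. coli 3. The positive calls numbered 154, 158, 138 and 161 without unstimulated a, E. coli 1, E. coli 2 and IFN-γ 2, and the negative ones 112, 128, 132 and 120 without unstimulated a, E. coli 1, E. coli 2 and joint 2. Which sign is the more frequent is open, with 226 positive and 266 negative calls with library totals, 314 and 316 with no filter, 251 and 276 without joint 3 and 161 each without IFN-γ 2. None of the 457 departures changed sign in any of these fits.

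Less than additive was the most frequent form. The joint effect kept the direction of the sum but was smaller in 253 genes (55.4% of those called), with a median size of the departure of 1.09. It went against the direction of the sum in 135 genes (29.5%, median 1.13) and exceeded the sum in 69 (15.1%, median 0.855). The single-stimulus libraries enter the sum and the departure with opposite signs, which favours the less than additive form. The 253 became 150, 167 and 159 without unstimulated a, E. coli 1 and E. coli 2. The 135 became 71, 77, 75 and 81 without unstimulated a, E. coli 1, E. coli 2 and joint 2. The 69 became 45, 42, 36, 45, 43 and 43 without unstimulated a, E. coli 1, E. coli 2, IFN-γ 1, IFN-γ 2 and joint 2.

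**Figure D1:**
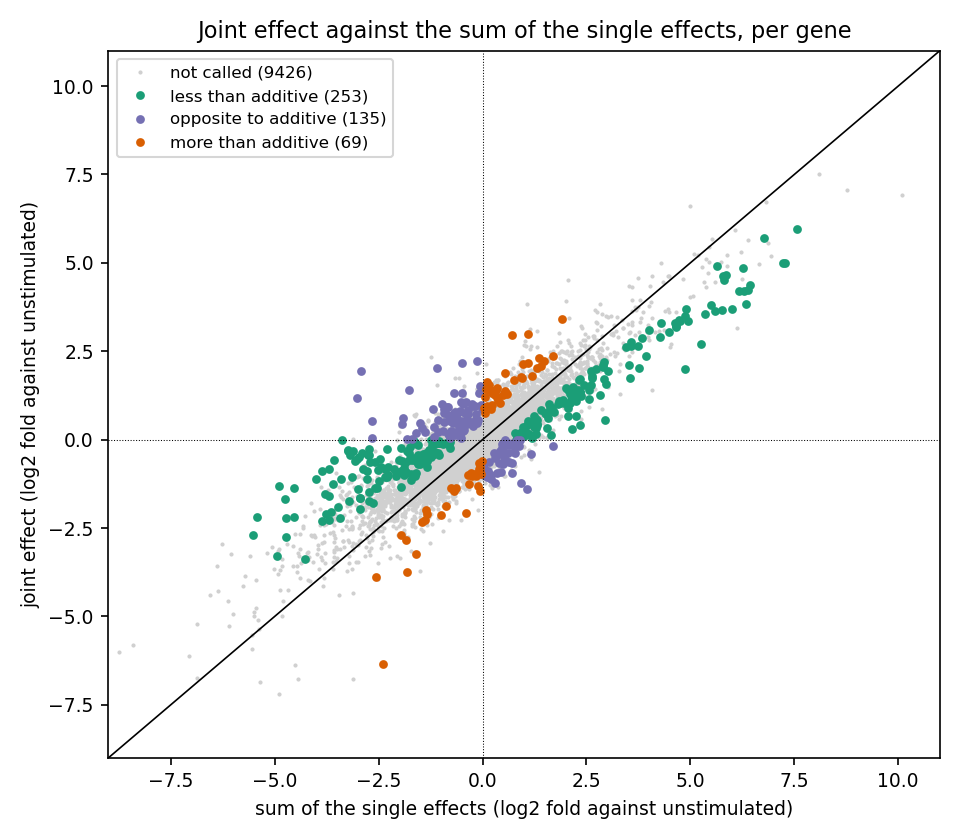
Each point is 1 of 9883 tested genes, with the sum of the E. coli and IFN-γ effects on the x axis and the effect of both stimuli on the y axis, both as log2 fold changes against unstimulated cells, and colours mark the more, less and opposite forms among the 457 called. The called genes of the less than additive form lie between the diagonal and the x axis on either side.

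Called departures mostly had the opposite sign to the effect of E. coli alone, which enters the departure with a minus sign, so part of this follows from the formula. E. coli alone lowered 219 of the 255 genes with a positive departure and 1649 of all 9883 tested genes, and it raised 166 of the 202 with a negative departure and 1337 of all tested. IFN-γ alone, which enters in the same way, lowered 98 of the 255 and 1579 of all tested genes, and it raised 109 of the 202 and 1541 of all tested. Across fits that leave out 1 library, the share that E. coli lowered among positive departures ranged from 82.5% to 90.9%, and the share it raised among negative ones from 78.7% to 86.7%. Of the called genes, 178 were lowered by E. coli alone but not called for E. coli in the presence of IFN-γ, and 110 were raised by it alone and not called in the presence of IFN-γ. The 178 became 114, 114 and 101 without unstimulated a, E. coli 1 and E. coli 2. The 110 became 54, 69, 69 and 67 without unstimulated a, E. coli 1, E. coli 2 and joint 2, and 168 without joint 3.

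Genes can also be grouped by their single effects, which favours departures of the other sign by construction. Of 610 genes that both stimuli raised alone, 104 were called (17.0%, against 4.62% of all tested genes) and 103 of these were less than additive; the 1 exception was Stx11, named after its values were seen. The 104 became 53, 68 and 65 without unstimulated a, E. coli 2 and joint 2. Of 814 genes that both stimuli lowered alone, 95 were called (11.7%), 90 of them less than additive. The 95 became 55, 58, 54, 56 and 63 without unstimulated a, E. coli 1, E. coli 2, IFN-γ 2 and IFN-γ 3. Where E. coli lowered and IFN-γ raised a gene, 48 of 151 were called (31.8%), with 25 opposite and 22 more than additive, and the 48 became 82 without E. coli 3. The 25 became 16 without IFN-γ 1 and 43 without E. coli 3, and the 22 became 13 without E. coli 2 and 38 without E. coli 3. Where E. coli raised and IFN-γ lowered a gene, 21 of 73 were called (28.8%). The 21 ranged from 10 without unstimulated a to 26 without joint 3.

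Type I interferon stimulated genes had positive departures. All 37 tested members, many of which code for antiviral proteins, had a departure above 0, with a median of 0.67 against 0.0042 for all tested genes. The test called 16 of the 37 (43.2%, against 4.62% of all tested genes), all positive, with 8 opposite, 6 less and 2 more than additive. The 16 became 10 without unstimulated c and 9 without E. coli 1, E. coli 2 or IFN-γ 1, and without unstimulated b or joint 3 the departure was above 0 in 35 of 37. E. coli alone lowered 26 of the 37, against 1649 of all 9883 tested genes.

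Stat2 codes for a transcription factor that acts with IRF9 in the response to type I interferons (ENSMUSG00000040033, chr10:128270559-128292849 in GRCm38). Its level was 217, 205 and 209 CPM in unstimulated libraries, 108, 109.7 and 109 with E. coli, 248, 263 and 314 with IFN-γ and 293, 272 and 317 in joint libraries. The E. coli libraries were the lowest and did not overlap any other group, while the joint and IFN-γ libraries overlapped and stood highest. E. coli lowered Stat2 alone (-0.95 ± 0.11) and gave 0.10 ± 0.11 in the presence of IFN-γ (adjusted p 0.641). The departure was 1.05 ± 0.16 (adjusted p 0.000614), opposite to the negative sum.

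Irf1, a transcription factor that IFN-γ induces, was more than additive with a departure of 0.71 ± 0.14 (adjusted p 0.0059), and it was named after its values were seen. Its mean level was 1278 CPM in joint libraries, against 1320.0 with IFN-γ and 184 with E. coli. The joint and IFN-γ libraries overlapped. In all, 6 of 20 tested genes of IFN-γ signalling and response factors were called (30.0%, against 4.62% of all tested genes), 5 positive and 1 negative. Over the list, 11 departures were above 0 and 9 below, so it did not lean to one side as the type I genes did. The negative call was Socs1, the feedback inhibitor of JAK kinases, which both stimuli raised. It stood at 450.5, 574 and 503 CPM unstimulated, 862, 843 and 892 with E. coli, 1410.5, 1261 and 1188 with IFN-γ and 1282, 1392 and 1085 in joint libraries. The joint libraries overlapped those of IFN-γ and none was above their highest, and the departure was -0.81 ± 0.17 (adjusted p 0.0102).

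Ciita, the master activator of MHC class II genes, was at 3.73, 4.44 and 2.48 CPM unstimulated, 0, 0 and 0.987 with E. coli, 6.16, 3.08 and 4.58 with IFN-γ and 8.03, 7.67 and 7.91 in joint libraries. The E. coli libraries were at or near 0 and the joint libraries were above all others. The departure was positive (adjusted p 0.00841), and no size is given because the E. coli libraries held at most 2 counts. Ciita shares exon positions with Dexi on the other strand, and the strand used in counting is not stated. B cells express Ciita as well, and the 5 tested B cell markers all departed positively, with a median of 2.68. Nlrc5, the activator of MHC class I genes, departed by 0.91 ± 0.21 (adjusted p 0.0184), a call lost without unstimulated c (0.0614), E. coli 2 (0.0527), IFN-γ 1 (0.0577) or IFN-γ 2 (0.0625) and overlapping an antisense gene.

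Called genes of antigen presentation had positive departures. Of 21 tested MHC class I genes, 6 were called (28.6%, against 4.62% of all tested genes), all positive, with a median departure of 0.41, and the 6 became 3 without E. coli 2 or joint 2. Psmb9, a subunit of the immunoproteasome that cuts peptides for presentation, stood at 193, 219 and 194 CPM unstimulated, 77.5, 66.2 and 96.8 with E. coli, 395, 389 and 389 with IFN-γ and 318, 339 and 351 in joint libraries. E. coli libraries were lowest, joint libraries lay below all IFN-γ libraries and above all unstimulated ones, and no groups overlapped. Its departure was 1.13 ± 0.17 (adjusted p 0.000719), and it shares exon positions with Tap1 on the other strand. H2-Q6, a non-classical class I gene with 15 near-identical stretches elsewhere, departed by 1.07 ± 0.23. H2-Q4, another such gene with 31 near-identical stretches and an antisense gene, departed by 0.78 ± 0.19 (adjusted p 0.0242), a call lost with no filter (0.0642) and without unstimulated b (0.0742), E. coli 2 (0.0704), IFN-γ 1 (0.064), IFN-γ 2 (0.0845), joint 2 (0.0651) or joint 3 (0.0555). Tapbpl, which edits the peptides that class I molecules carry, departed by 0.73 ± 0.18 (adjusted p 0.0217), lost without unstimulated a (0.0842), E. coli 1 (0.0621), E. coli 2 (0.0869), IFN-γ 3 (0.0639), joint 1 (0.0549) or joint 2 (0.0577), and it has 8 near-identical stretches. Of 7 tested MHC class II genes, 1 was called (14.3%), and all 7 departures were above 0 with a median of 0.94. The call was H2-Aa (1.23 ± 0.33, adjusted p 0.034), lost without unstimulated a (0.0958), unstimulated b (0.0813), E. coli 1 (0.107), E. coli 2 (0.132), IFN-γ 2 (0.0903), IFN-γ 3 (0.0884), joint 2 (0.0836) or joint 3 (0.0552). The list held 4 calls without E. coli 3 and 2 without joint 1. B cells express class II genes as well, and 8 B cell markers summed to a mean of 179.9 CPM unstimulated, 55.28 with E. coli, 74.05 with IFN-γ and 131.0 in joint libraries. The part of B cells in the class II departures was not tested.

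Guanylate-binding proteins and immunity-related GTPases attack vacuoles that hold microbes. Of 16 tested, 4 were called (25.0%, against 4.62% of all tested genes), all positive, and all 16 departures were above 0 with a median of 0.75. In each fit that leaves out 1 library 15 or 16 were above 0. Gbp7 stood at 674, 688 and 644 CPM unstimulated, 289, 301 and 315 with E. coli, 1418, 1392 and 1495 with IFN-γ and 1655, 1383 and 953 in joint libraries. The E. coli libraries lay apart below all others, and joint 1 was above the IFN-γ libraries while joint 2 and joint 3 were below them. The departure was 1.04 ± 0.21 (adjusted p 0.00626), and the gene shares exon positions with 1 gene on its own strand. Gbp8 departed by 1.89 ± 0.35 and Gbp9 by 0.94 ± 0.16; each overlaps 2 genes on its strand, and Gbp8 has 4 near-identical stretches elsewhere. On the linear scale Gbp8 departed by -76.2 CPM, the other direction. Irgm1, a regulator of these GTPases, was more than additive at 0.74 ± 0.18 (adjusted p 0.023), a call lost with library totals (0.0558) and without unstimulated a (0.0561), unstimulated c (0.0707), E. coli 2 (0.073), IFN-γ 2 (0.0549), IFN-γ 3 (0.0725), joint 1 (0.0594) or joint 2 (0.0537).

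Among the type I interferon stimulated genes, Ifit2, which binds viral RNA, stood at 151, 131 and 206 CPM unstimulated, 39.6, 41.5 and 64.2 with E. coli, 296, 333 and 339 with IFN-γ and 196, 252 and 262 in joint libraries. E. coli libraries were the lowest, and the joint libraries lay below every IFN-γ library and overlapped the unstimulated ones. The departure was 1.33 ± 0.25 (adjusted p 0.00394), opposite to the sum. Herc6, the mouse ligase that attaches ISG15, departed by 1.17 ± 0.19 (adjusted p 0.000982), with 1 overlapping gene on its strand. Ifi47, an immunity-related GTPase, departed by 1.16 ± 0.18 (adjusted p 0.000719) and was more than additive, with 1 overlapping gene on each strand. Ifit1bl1 was lowered by each stimulus and less than additive, at 1.41 ± 0.26 (adjusted p 0.00346). Calhm6, a channel protein induced by interferon, departed by 3.12 ± 0.50, from 7.88 CPM unstimulated and 1.32 with E. coli to 23.4 with IFN-γ and 32.1 with both.

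**Figure D2:**
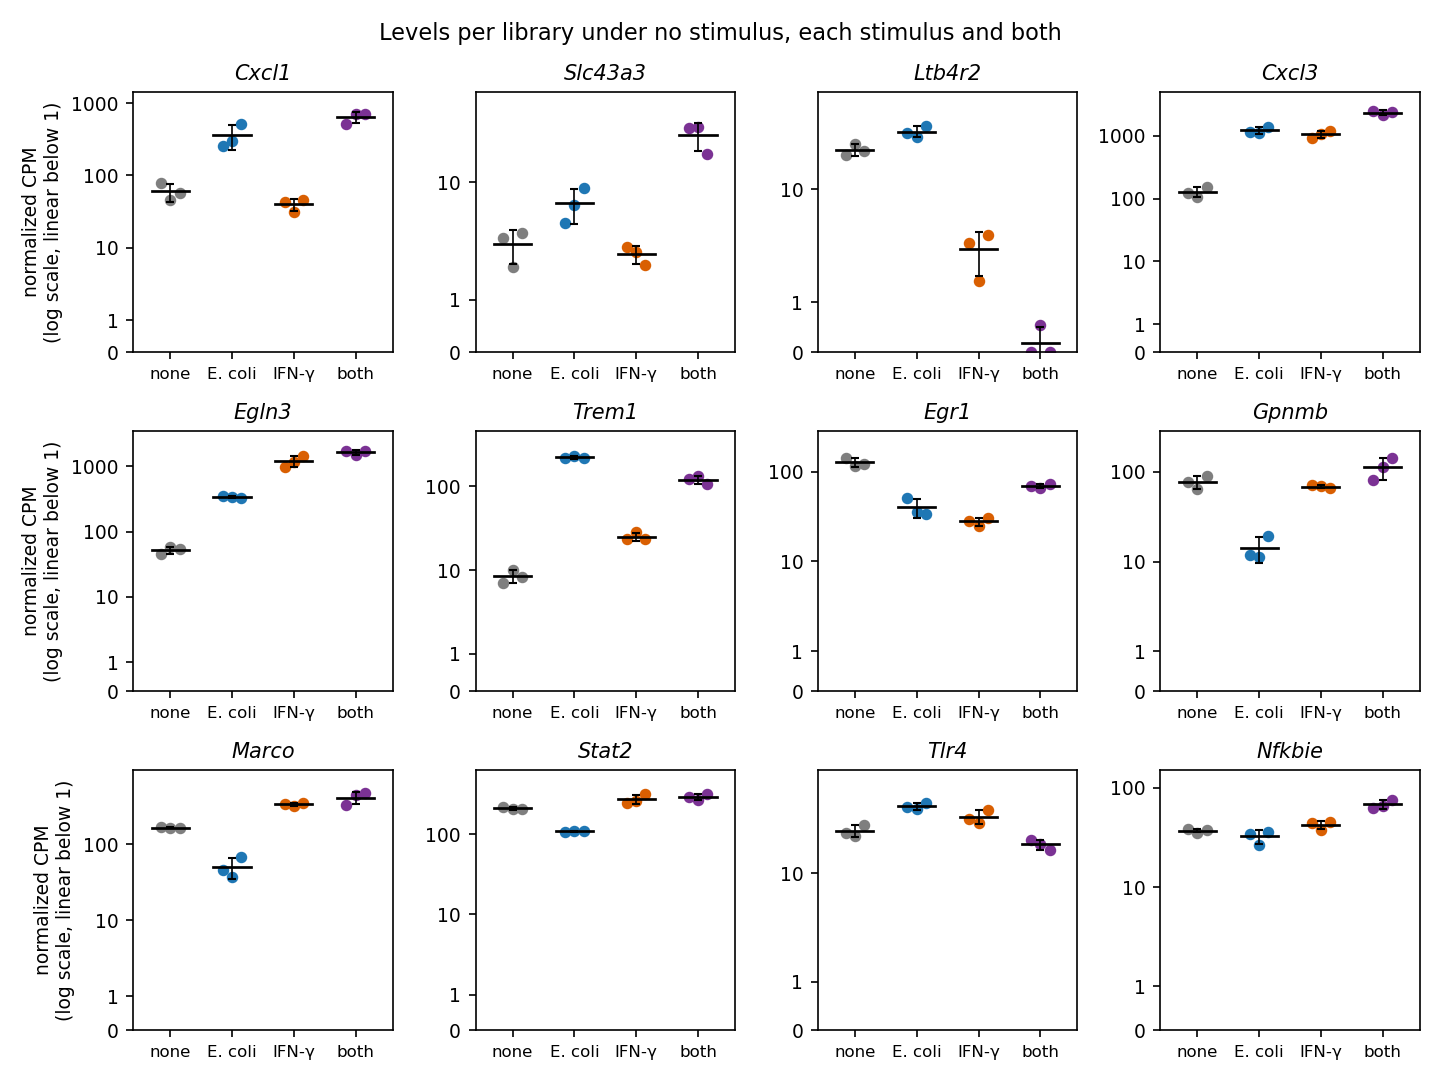
Points are the CPM of 12 genes in each of the 12 libraries on a log axis that is linear below 1, by group, with lines at group means and bars of 1 SD. Stat2, Gpnmb and Marco are lowest with E. coli alone and high with both, while Trem1 is highest with E. coli alone.

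Toll-like receptor and adaptor genes gave 2 calls among 16 tested (12.5%, against 4.62% of all tested genes), and 1 of the 2 depends on single libraries. Tlr4, the receptor gene for lipopolysaccharide (ENSMUSG00000039005, chr4:66827584-66930284), stood at 23.5, 22.2 and 28.1 CPM unstimulated, 41.2, 39.1 and 44.9 with E. coli, 31.9, 29.2 and 38.6 with IFN-γ and 20.4, 18.6 and 16.5 in joint libraries. The E. coli libraries were the highest and the joint libraries the lowest of all, without overlap between any pair of groups. E. coli raised Tlr4 alone (0.75 ± 0.16) and lowered it in the presence of IFN-γ (-0.84 ± 0.19, adjusted p 0.00586). The departure was -1.58 ± 0.25 (adjusted p 0.000792). The other call was Tlr1, whose product senses lipopeptides together with TLR2, at 1.76 ± 0.47 (adjusted p 0.0371), lost with the DESeq2 Wald test (0.0739) and without unstimulated a (0.136), unstimulated c (0.0716), E. coli 1 (0.107), E. coli 2 (0.073), IFN-γ 1 (0.0919), IFN-γ 2 (0.114), joint 2 (0.117) or joint 3 (0.0652). Without joint 3 the list held 3 negative calls.

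Trem1, a receptor that amplifies inflammatory signals (ENSMUSG00000042265, chr17:48232768-48246924), was at 7.08, 10.1 and 8.26 CPM unstimulated, 215, 228 and 219 with E. coli, 23.5, 28.2 and 23.5 with IFN-γ and 121, 131 and 107 in joint libraries. The groups did not overlap, and the joint libraries lay between those of IFN-γ and those of E. coli. E. coli raised Trem1 by 4.73 ± 0.15 alone and 2.24 ± 0.14 with IFN-γ, and IFN-γ raised it alone but lowered it in the presence of E. coli (-0.89 ± 0.11). The departure was -2.48 ± 0.22 (adjusted p 3.68e-06). Tiam1, an activator of the GTPase RAC, had the same order with 3.35, 3.8 and 5.37 CPM unstimulated, 55.5, 51.5 and 55.8 with E. coli, 10.1, 7.69 and 11.8 with IFN-γ and 24.1, 12.6 and 15.2 in joint libraries. The E. coli libraries were far above the joint ones, and the departure was -2.88 ± 0.39 (adjusted p 0.000308).

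Of 11 tested NF-κB subunits and inhibitors, 3 were called (27.3%, against 4.62% of all tested genes). Nfkb1, which codes for the p50 subunit and its precursor, was at 256, 246 and 241 CPM unstimulated, 212, 216 and 219 with E. coli, 189, 222 and 188 with IFN-γ and 291, 314 and 265 in joint libraries. The joint libraries stood above all others, IFN-γ alone lowered the gene, and the departure was 0.74 ± 0.15 (adjusted p 0.00668). Bcl3, an atypical inhibitor that binds p50, was less than additive at -1.41 ± 0.23 (adjusted p 0.00136) and overlaps an antisense gene. Nfkbie, an inhibitor that holds NF-κB in the cytoplasm, departed by 0.89 ± 0.22 (adjusted p 0.0217), a call lost without unstimulated a (0.0679), E. coli 2 (0.0892) or IFN-γ 2 (0.0803). Positive calls of the list numbered 1 without unstimulated a, E. coli 2 or IFN-γ 2.

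Chemokines of the same family departed in opposite directions. Cxcl1, a neutrophil attractant (ENSMUSG00000029380, chr5:90891241-90893115), was at 78.2, 45.0 and 57.0 CPM unstimulated, 259, 303 and 518 with E. coli, 43.1, 31.3 and 45.1 with IFN-γ and 516, 711 and 709 in joint libraries. IFN-γ libraries overlapped the unstimulated ones at their lower end, and joint libraries were highest but for joint 1, which lay just below E. coli 3. IFN-γ did not raise Cxcl1 alone (-0.63 ± 0.27, adjusted p 0.0894) but raised it in the presence of E. coli (0.85 ± 0.21). The departure was 1.48 ± 0.34 (adjusted p 0.0173), more than additive, and the call was lost without unstimulated a (0.0843), IFN-γ 2 (0.0639) or joint 2 (0.0501).

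Cxcl3, which acts on the same receptor (ENSMUSG00000029379, chr5:90786103-90789600), was at 124, 106 and 152 CPM unstimulated, 1161, 1114 and 1380.0 with E. coli, 933, 1058 and 1177 with IFN-γ and 2481, 2121 and 2414 in joint libraries. Each stimulus alone gave a large rise, and the joint libraries were above all others, but less so than the sum of the log2 effects gives. On the linear scale Cxcl3 exceeded the sum of its rises by 191.9 CPM, so its direction depends on the scale. It had 3397 to 3871 counts in joint libraries, near the highest count of any gene, 4095, so its joint level may be compressed. The departure was -2.10 ± 0.20 (adjusted p 4.56e-06), less than additive. Ppbp, a neighbouring chemokine gene on the same chromosome, rose from 9.59 CPM to 69.7 with E. coli, 112 with IFN-γ and 182 in joint libraries, a departure of -2.15 ± 0.30 (adjusted p 0.000422), and it exceeded the linear sum by 9.578 CPM. These 3 were the calls among 12 tested CXC chemokines (25.0%, against 4.62% of all tested genes). Their median departure was 0.36, but 0.20 without unstimulated a, 0.24 without E. coli 2, 0.79 without E. coli 3 and 0.13 without joint 3. Positive calls numbered 0 without unstimulated a, IFN-γ 2 or joint 2, 2 without joint 1 and 4 without E. coli 3.

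The stretch just upstream of Cxcl1 and Cxcl3 is shown because the genes lie near each other and depart in opposite directions on the log2 scale. The sequences are 120 bases before the gene start from RefSeq (GRCm38.p6), at chr5:90891125-90891244 and chr5:90785981-90786100, both on the plus strand, and the promoter table matched 7575 of the 9883 tested genes. Capitals mark matches on either strand to GGNNTTTCC, a pattern like that bound by NF-κB, with 2 for Cxcl1 and 1 for Cxcl3. In windows of this length, 2.44% of 32851 promoters hold a match. A match is a description of the letters alone.
Cxcl1: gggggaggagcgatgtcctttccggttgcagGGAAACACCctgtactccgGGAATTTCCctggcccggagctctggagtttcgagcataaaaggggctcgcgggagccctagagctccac
Cxcl3: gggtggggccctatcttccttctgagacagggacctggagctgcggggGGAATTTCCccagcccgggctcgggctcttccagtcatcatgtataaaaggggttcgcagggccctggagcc

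For the interferon genes, Gbp7 with its positive departure and Socs1 with its negative one are shown in the same way, at chr3:142530216-142530335 on the plus strand and chr16:10785537-10785656 on the minus strand. Capitals mark GAAANNGAA on either strand, the core of the element bound by interferon regulatory factors, with 1 match for Gbp7 and 2 overlapping ones for Socs1. Irgm1, with a positive departure, also held 2 overlapping matches and is not shown. The share of promoters with a match in this length is 3.11%.
Gbp7: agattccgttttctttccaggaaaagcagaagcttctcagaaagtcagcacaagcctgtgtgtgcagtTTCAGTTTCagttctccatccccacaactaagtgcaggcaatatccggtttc
Socs1: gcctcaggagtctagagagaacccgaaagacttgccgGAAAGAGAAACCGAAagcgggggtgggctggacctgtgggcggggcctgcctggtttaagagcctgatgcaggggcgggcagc

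CC chemokines gave 2 calls among 12 tested genes (16.7%, against 4.62% of all tested genes). Departures were above 0 in 11 of the 12 and below 0 in 1, Ccl3. The median departure was 0.44, which became 0.275 without E. coli 2 and 0.66 without E. coli 3. Ccl3, an attractant of monocytes and lymphocytes, rose from 51.6 CPM to 552 with E. coli, 244 with IFN-γ and 1558 in joint libraries. Its departure was -0.74 ± 0.17 (adjusted p 0.016). In linear CPM Ccl3 exceeded the sum of its rises by 813.9 CPM, and the call was lost when counts were corrected for collisions of molecular identifiers, with a departure of -0.45 (adjusted p 0.157). Ccl12, a monocyte attractant, departed by 1.44 ± 0.34 (adjusted p 0.02), a call lost without unstimulated c (0.0576), E. coli 1 (0.0562), E. coli 2 (0.0643), IFN-γ 2 (0.0583), joint 2 (0.0643) or joint 3 (0.0506). Positive calls of the list numbered 2 without E. coli 3 or IFN-γ 1.

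Of the genes that the study names for a joint response or as readouts, a choice made on these samples, 15 were taken here and 3 of these were called, Cxcl1, Cxcl3 and the carbonic anhydrase gene Car4. For most of these genes the study reports a larger change with both stimuli than with either alone, which is not the same as a departure from the log2 sum. By ELISA it also reports more IL-6 protein with both. The study's readout Ccl24, an eotaxin gene left out of the 15, was not called in any log2 fit, with a departure of 0.98 ± 0.41 (adjusted p 0.217). Il6, an inflammatory cytokine, stood at 16.4, 18.4 and 24.8 CPM unstimulated, 121, 141 and 198 with E. coli, 45.9, 46.1 and 39.2 with IFN-γ and 413, 548 and 512 in joint libraries. The joint libraries were far above all others. The departure was 0.55 ± 0.28 (adjusted p 0.336) and became 0.33 without unstimulated c, and Cxcl2, another neutrophil attractant, gave 0.55 ± 0.23 (adjusted p 0.217). Cxcl2 was called without E. coli 3 and with counts corrected for collisions, there at 1.06. Cxcl5, of the same kind, departed by 0.81 ± 0.55 and the membrane-bound chemokine Cxcl16 by 1.10 ± 0.36 (adjusted p 0.508 and 0.0974), with Cxcl5 at 0.52 without IFN-γ 2. Cxcl16 was called without E. coli 3, with the replicate block and with no filter, and it overlaps Zmynd15 on the other strand.

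Cd274, which codes for the checkpoint ligand PD-L1, stood at 133, 127 and 203 CPM unstimulated, 291, 311 and 356 with E. coli, 1027, 1076 and 1029 with IFN-γ and 1625, 1494 and 1561 in joint libraries. The groups did not overlap and the joint libraries were highest. The departure was -0.46 ± 0.20 (adjusted p 0.247), and -0.72 with a call without unstimulated c (adjusted p 0.0228). On the linear scale the joint rise of Cd274 exceeded the sum of its single rises, so its direction depends on the scale. The inhibitory receptor gene Siglecg and the matrix protein gene Tgfbi, both lowered by each stimulus, departed by -0.09 ± 0.17 and 0.23 ± 0.26 (adjusted p 0.865 and 0.742), with signs that turned for Siglecg with collision-corrected counts (0.0029) and for Tgfbi without joint 1 (-0.02). Tnf gave -0.63 ± 0.29, the T cell attractant Cxcl9 -0.10 ± 0.59 and the cytokine gene Il27 -0.60 ± 0.31, with adjusted p of 0.272, 0.961 and 0.341. Il27 became -0.30 without IFN-γ 3 and overlaps Apobr on the other strand. Cxcl9 turned positive without unstimulated a (0.25), unstimulated b (0.05), E. coli 1 (0.47) or joint 1 (0.06) and became -0.90 without unstimulated c, so its sign is open.

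The alarmin Il33 was at 0, 0 and 0.413 CPM unstimulated, 6.93, 4.01 and 13.3 with E. coli, 4.48, 8.2 and 5.89 with IFN-γ and 20.4, 25.8 and 29.7 in joint libraries. Unstimulated libraries were at or near 0, every stimulated group was above them, and the joint libraries stood highest. Its interaction had an adjusted p of 0.0972, with calls without E. coli 2 and with no filter. Il12b, a subunit of IL-12, was at 16.8, 5.13 and 1.96 CPM with IFN-γ and 19.7, 23.6 and 11.2 with both, and at no more than 2 counts in any unstimulated or E. coli library. The IFN-γ libraries overlapped the joint ones, and the interaction was not called (adjusted p 1).

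Calls among type 2 and survival genes were mostly negative, but the list as a whole leaned little. Of its departures 7 were above 0 and 9 below, with a median of -0.04. Il13, which drives mucus and allergic inflammation, was at 3.73, 12.7 and 14.0 CPM unstimulated, 184, 209 and 196 with E. coli, 13.4, 13.3 and 18.3 with IFN-γ and 99.3, 98.6 and 98.9 in joint libraries. E. coli libraries were highest, and the joint libraries lay close together, apart from every other group. The departure was -1.60 ± 0.36 (adjusted p 0.0139), a call lost without IFN-γ 3 (0.0533). Il4ra, the receptor chain shared by IL-4 and IL-13, was at 105, 112 and 119.8 CPM unstimulated, 239, 231 and 252 with E. coli, 113, 134 and 137 with IFN-γ and 121, 123 and 129.9 in joint libraries. It stood out with E. coli alone and lay close together in the other groups. The departure was -1.14 ± 0.15 (adjusted p 0.000286), and Il4ra overlaps an antisense gene. Of 16 tested type 2 and survival genes, 3 were called negative and 1 positive (25.0% in all, against 4.62% of all tested genes). The negative count was 1 without IFN-γ 3 and the positive count 2 without E. coli 3. The positive call was Il15ra, a receptor chain that holds IL-15 on the cell surface, at 1.09 ± 0.24 (adjusted p 0.0107). Il13ra1, a receptor chain for IL-13, departed by -1.34 ± 0.34 (adjusted p 0.0278), lost with limma-voom (0.0653) and without unstimulated a (0.0974), unstimulated b (0.0569), E. coli 2 (0.073), E. coli 3 (0.0525), IFN-γ 2 (0.0579), IFN-γ 3 (0.0613) or joint 2 (0.0664).

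Il1r2, a decoy receptor that binds IL-1 without signalling, was at 11.6, 17.1 and 28.9 CPM unstimulated, 88.5, 82.9 and 76.0 with E. coli, 186, 320.4 and 353 with IFN-γ and 253, 236 and 264 in joint libraries. The joint libraries lay within the IFN-γ range. Its departure was -2.29 ± 0.33 (adjusted p 0.000511), the call among 11 tested IL-1 family genes (9.09%, against 4.62% of all tested genes). Their median was -0.22, and -0.41 without unstimulated c, -0.35 without IFN-γ 1 and -0.39 without joint 1. Negative calls numbered 2 without E. coli 2, IFN-γ 1 or joint 1, and 1 gene was positive without joint 1. Hdc, which makes histamine, rose with each stimulus and to 480.0 CPM with both, with a departure of -1.29 ± 0.22 (adjusted p 0.00167). Hdc exceeded the linear sum of its rises by 185.4 CPM, so its direction depends on the scale. Osm, a cytokine of the IL-6 family, was more than additive at 0.79 ± 0.19 (adjusted p 0.0203), a call lost without unstimulated a (0.0596), unstimulated c (0.0586), E. coli 2 (0.0523), IFN-γ 1 (0.0705) or IFN-γ 2 (0.0516).

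Called genes of the hypoxia response mostly fell short of the sum of log2 effects, but the direction depends on the scale. Of 18 tested, 7 were called negative and 1 positive (44.4% in all, against 4.62% of all tested genes), with a median departure of -0.44, and 6 of the 7 exceeded the sum of their rises on the linear scale. Egln3, an oxygen-sensing hydroxylase that marks HIF for degradation (ENSMUSG00000035105, chr12:54178981-54203860), was at 45.1, 57.7 and 53.7 CPM unstimulated, 345, 340.0 and 329 with E. coli, 973, 1171 and 1456 with IFN-γ and 1709.8, 1489 and 1732 in joint libraries. The 4 groups did not overlap and the joint libraries were the highest. E. coli raised Egln3 by 2.71 ± 0.16 alone and 0.45 ± 0.13 on top of IFN-γ, a departure of -2.25 ± 0.20 (adjusted p 3.68e-06), and on the linear scale it exceeded the sum of its rises by 157.7 CPM. P4ha1, which hydroxylates collagen, departed by -1.80 ± 0.21 (adjusted p 7.73e-05). Mif, a cytokine induced by low oxygen, departed by -1.69 ± 0.20 and the ankyrin repeat gene Ankrd37 by -2.29 ± 0.30. Mif has 4 near-identical stretches elsewhere, and Ankrd37 overlaps Lrp2bp and Ufsp2 on the other strand. On the linear scale Ankrd37 exceeded the sum of its rises by 23.9 CPM and Mif by 13.82 CPM. The positive call was Bnip3l, a mitophagy receptor, at 0.97 ± 0.16 (adjusted p 0.00155), named after its values were seen.

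Glycolysis genes gave negative departures as well, with 6 of 21 tested genes called (28.6%, against 4.62% of all tested genes), all negative and less than additive. Their list had a median of -0.26, which became -0.44 without unstimulated b, -0.15 without IFN-γ 3 and -0.59 with counts corrected for collisions. The 6 became 3 without unstimulated a, E. coli 1, IFN-γ 3 or joint 2, and 10 with the corrected counts; without E. coli 3 there was 1 positive call. Pfkl, the liver form of the enzyme that commits sugar to glycolysis, was at 28.3, 25.4 and 31.4 CPM unstimulated, 88.9, 90.3 and 106 with E. coli, 218, 227 and 252 with IFN-γ and 285, 288 and 305 in joint libraries. The 4 groups were apart in that rising order. The departure was -1.40 ± 0.17 (adjusted p 8.93e-05). Tpi1 and Pgk1, enzymes further down the pathway, departed by -1.46 ± 0.20 and -0.92 ± 0.19 (adjusted p 0.000248 and 0.00668). Tpi1 overlaps Spsb2 on the other strand, and near-identical stretches number 2 for Tpi1 and 4 for Pgk1. Slc2a1, a glucose importer that overlaps an antisense gene, departed by -0.96 ± 0.25 (adjusted p 0.0304) and exceeded the linear sum by 14.98 CPM, a call lost without unstimulated a (0.115), unstimulated c (0.0517), E. coli 1 (0.0624), E. coli 2 (0.0643), IFN-γ 3 (0.0848) or joint 2 (0.078).

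No gene had more than 4095 counts in any of the 12 libraries, 1 below the number of sequences that identifiers of 6 bases allow, so levels of abundant genes may be compressed where identifiers collide. Whether identifiers were collapsed is not stated. Its part in the departures was not tested beyond refitting with corrected counts. The collision-corrected counts gave 522 calls. Among 2566 genes whose highest count was below 50, 35 calls were positive and 4 negative (1.52% called, against 4.62% of all tested genes). From 2048 counts up, 8 calls were positive and 17 negative among 247 genes (10.1%). The median departure was 0.17 in the first set and 0.0056 in the second.

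Antioxidant genes gave 4 negative calls and 1 positive among 16 tested (31.2% in all, against 4.62% of all tested genes). The negative count was 2 without unstimulated a, E. coli 1, IFN-γ 3, joint 1 or joint 2. The positive count was 2 without E. coli 3 and 0 without unstimulated b, unstimulated c, E. coli 1, E. coli 2, IFN-γ 1, IFN-γ 2 or joint 2. Nqo1, a quinone reductase, was at 52.9, 61.5 and 73.5 CPM unstimulated, 251, 273 and 251 with E. coli, 134, 111 and 112 with IFN-γ and 156, 151 and 249 in joint libraries. E. coli libraries were highest, joint 3 came close to them, and the other joint libraries lay nearer to IFN-γ. The departure was -1.41 ± 0.24 (adjusted p 0.00167). Slc7a11, the cystine importer, departed by -1.34 ± 0.19 (adjusted p 0.000466), exceeded the sum by 112.8 CPM on the linear scale and has 9 near-identical stretches elsewhere. Txnrd1, a thioredoxin reductase, departed by -0.72 ± 0.19 (adjusted p 0.0347), lost without unstimulated a (0.0978), unstimulated b (0.07), E. coli 1 (0.062), E. coli 2 (0.0888), IFN-γ 3 (0.103), joint 1 (0.0764) or joint 2 (0.0985). Mt1, a metallothionein that binds metals, was the positive call at 1.07 ± 0.26 (adjusted p 0.0234), lost without unstimulated b (0.0664), unstimulated c (0.0669), E. coli 1 (0.0619), E. coli 2 (0.0776), IFN-γ 1 (0.0717), IFN-γ 2 (0.0718) or joint 2 (0.0745).

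The immediate early genes Egr1, Fos and Jun departed positively, while Egr2, of the same family as Egr1, departed by -1.425. Each stimulus alone raised Egr2, which was called less than additive and was named after its values were seen. Egr2 exceeded the linear sum of its rises by 6.596 CPM. Egr1, a zinc finger factor of early growth responses (ENSMUSG00000038418, chr18:34859823-34864984), was at 142, 116 and 123 CPM unstimulated, 50.6, 35.4 and 34.1 with E. coli, 28.0, 25.1 and 30.7 with IFN-γ and 69.4, 65.2 and 73.9 in joint libraries. Each stimulus alone lowered it, and the joint libraries lay between the unstimulated ones and those of either stimulus, without overlap. E. coli raised Egr1 in the presence of IFN-γ by 1.32 ± 0.17, and IFN-γ raised it in the presence of E. coli by 0.79 ± 0.16. The departure was 2.98 ± 0.23 (adjusted p 7.07e-07), the smallest adjusted p among the genes that the naming rule gives.

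Fos, a subunit of AP-1, was at 96.5, 73.5 and 101 CPM unstimulated, 30.6, 19.1 and 29.1 with E. coli, 54.9, 41.5 and 44.5 with IFN-γ and 43.8, 56.4 and 45.5 in joint libraries. The joint and IFN-γ libraries overlapped, above those of E. coli. Its departure was 1.87 ± 0.27 and that of its partner Jun 1.45 ± 0.31 (adjusted p 0.000466 and 0.00916). Jun overlaps Junos on the other strand. In all, 4 of 18 tested AP-1, EGR and ATF genes were called positive and 3 negative (38.9% in all, against 4.62% of all tested genes), where 1 of the negative calls was Klf2, a Krüppel-like factor that the list also holds. The negative count was 1 without unstimulated a, unstimulated c, E. coli 1, IFN-γ 3, joint 1 or joint 2. Maff, a small partner of AP-1 factors, departed by -1.62 ± 0.45 (adjusted p 0.0421) and exceeded the linear sum by 49.25 CPM, a call lost with the DESeq2 Wald test (0.0737), with limma-voom (0.131) and without unstimulated a (0.18), unstimulated b (0.085), unstimulated c (0.075), E. coli 1 (0.0859), E. coli 2 (0.0669), IFN-γ 2 (0.0579), IFN-γ 3 (0.0789), joint 1 (0.0649) or joint 2 (0.0754). In the feedback list, Dusp1, a phosphatase that shuts off MAP kinases, departed by 1.65 ± 0.27 (adjusted p 0.00122) and overlaps Ergic1 on the other strand, while Dusp5, another, departed by -1.20 ± 0.22 (adjusted p 0.00324) and overlaps an antisense gene. Socs2, a feedback inhibitor of cytokine signals with 2 near-identical stretches, departed by -0.78 ± 0.18 (adjusted p 0.0184), lost without IFN-γ 1 (0.06). Zfp36, which speeds decay of cytokine mRNA and overlaps an antisense gene, departed by 0.73 ± 0.20 (adjusted p 0.0418), lost with DESeq2 size factors (0.0508) and without unstimulated a (0.051), unstimulated b (0.109), unstimulated c (0.0747), E. coli 1 (0.113), E. coli 2 (0.141), IFN-γ 1 (0.117), IFN-γ 2 (0.151), joint 2 (0.0712) or joint 3 (0.101).

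Some surface receptors were low with E. coli alone and not with both stimuli. Gpnmb, a membrane glycoprotein of phagocytes (ENSMUSG00000029816, chr6:49036546-49070929), was at 76.0, 64.6 and 90.4 CPM unstimulated, 11.8, 11.4 and 19.3 with E. coli, 71.1, 69.2 and 65.4 with IFN-γ and 81.1, 112 and 142 in joint libraries. E. coli alone stood far below the other groups, and the joint libraries overlapped the unstimulated ones at their upper end. E. coli lowered Gpnmb alone (-2.49 ± 0.22) and raised it in the presence of IFN-γ (0.71 ± 0.19). The departure was 3.19 ± 0.29 (adjusted p 3.68e-06), opposite to the sum.

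Marco, a scavenger receptor that binds bacteria (ENSMUSG00000026390, chr1:120474538-120505024), was at 165, 162 and 160.2 CPM unstimulated, 46.1, 37.4 and 66.7 with E. coli, 339, 318 and 346 with IFN-γ and 321, 435 and 469 in joint libraries. The E. coli libraries were lowest and the joint libraries overlapped those of IFN-γ. The departure was 2.01 ± 0.23 (adjusted p 5.61e-05). Macrophages express Gpnmb and Marco as well. The summed level of 10 macrophage markers was 1680.0, 1792 and 1794 CPM unstimulated, 1681, 1507 and 2023 with E. coli, 2326, 2268 and 2482 with IFN-γ and 2103, 1996 and 2468 in joint libraries. Adgre1, which eosinophils express too, was the most abundant and carried much of the sum. Adgre1 and Csf1r were the 2 with a departure below 0, and the median of the 10 was 0.489, but 0.323 without E. coli 2 and 0.936 without E. coli 3. The complement genes C1qa, C1qb and C1qc were higher in E. coli 3 than in E. coli 1 and E. coli 2, with C1qc at 128, 115 and 244 CPM. Among the E. coli libraries the sum was also highest in E. coli 3. None of the 10 was at 0, and 1 was called, Timd4 at 1.62 ± 0.34 (adjusted p 0.00953), while 3 were called without E. coli 3. The part of macrophages in these departures was not tested.

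Ltb4r2, a receptor for lipid attractants, was at 20.1, 25.4 and 21.9 CPM unstimulated, 31.8, 29.4 and 36.5 with E. coli, 3.36, 1.54 and 3.92 with IFN-γ and 0, 0.548 and 0 in joint libraries. The joint libraries held 0 or 1 counts and lay below all others. The interaction was negative and more than additive (adjusted p 0.0109), and no size is given for a group at the floor. Ramp3, which modifies peptide hormone receptors, departed by 3.18 ± 0.71 (adjusted p 0.0131) and overlaps an antisense gene. Lama5, a laminin chain of basement membranes, was at 7.82, 9.51 and 11.2 CPM unstimulated, 152, 151 and 128 with E. coli, 3.36, 3.59 and 7.85 with IFN-γ and 16.1, 13.2 and 13.2 in joint libraries. It was high with E. coli alone and only slightly above the unstimulated level with both, a departure of -2.38 ± 0.41 (adjusted p 0.0018).

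Falls beyond the sum numbered 31 of the 69 more than additive genes, against 38 rises, and this order is open. With library totals, more than additive calls numbered 22 among genes that only IFN-γ lowered and 6 among those that only IFN-γ raised. They numbered 18 where E. coli raised and IFN-γ lowered a gene, and 18 where E. coli lowered and IFN-γ raised it. Car4, a membrane-bound carbonic anhydrase, was at 596, 771 and 599 CPM unstimulated, 1316, 1150.2 and 1361 with E. coli, 47.0, 59.5 and 63.4 with IFN-γ and 41.6, 52.6 and 37.6 in joint libraries. E. coli raised it alone, but the joint libraries overlapped the low level with IFN-γ. The departure was -1.32 ± 0.22 (adjusted p 0.00167). Slco4a1, an organic anion transporter, was at 51.0, 46.9 and 54.5 CPM unstimulated, 40.0, 32.1 and 41.0 with E. coli, 25.7, 19.0 and 24.2 with IFN-γ and 6.57, 4.38 and 5.28 in joint libraries. Each stimulus alone lowered it and the joint libraries were lowest by far, a departure of -1.64 ± 0.31 (adjusted p 0.00379). Pank1, the first enzyme of coenzyme A synthesis, departed by -1.40 ± 0.26 (adjusted p 0.00394). Eid2, an inhibitor of differentiation, departed by -1.65 ± 0.44 (adjusted p 0.0335), lost with limma-voom (0.0556) and without unstimulated a (0.0816), unstimulated c (0.0544), E. coli 1 (0.0773), IFN-γ 1 (0.11), IFN-γ 3 (0.0614), joint 1 (0.0857) or joint 2 (0.0945). Neb, a giant muscle filament gene, departed by -1.93 ± 0.44 (adjusted p 0.0144), a call lost without IFN-γ 2 (0.0516); it overlaps an antisense gene.

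Rises beyond the sum included Casp4, the sensor of lipopolysaccharide in the cytosol, at 57.0, 51.3 and 61.5 CPM unstimulated, 42.8, 41.8 and 51.8 with E. coli, 91.8, 94.3 and 89.6 with IFN-γ and 123, 144 and 129 in joint libraries. The joint libraries were above all others and the E. coli ones tended to be lowest, overlapping the unstimulated range. The departure was 0.85 ± 0.18 (adjusted p 0.00842). Slc43a3, a purine transporter that neither stimulus alone changed past the test, was at 3.35, 1.9 and 3.72 CPM unstimulated, 4.49, 6.35 and 8.89 with E. coli, 2.8, 2.56 and 1.96 with IFN-γ and 28.5, 29.0 and 17.1 in joint libraries. The joint libraries stood above all others. The departure was 2.27 ± 0.58 (adjusted p 0.0296), and the call was lost without unstimulated a (0.101), unstimulated c (0.0969), E. coli 1 (0.0715), E. coli 2 (0.0662), IFN-γ 1 (0.0576), IFN-γ 2 (0.0661), IFN-γ 3 (0.0758), joint 1 (0.0551) or joint 2 (0.0746). Slc43a3 was 1 of 34 called genes among 5425 that neither stimulus alone changed past the test. The 34 became 16, 18, 16, 20 and 15 without unstimulated a, E. coli 1, E. coli 2, IFN-γ 3 and joint 2.

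Among falls that were smaller than the sum, the largest departures came from genes at low levels. Spic, a transcription factor of iron-recycling macrophages, was at 11.6, 10.8 and 12.4 CPM unstimulated, 0.816, 0.669 and 3.95 with E. coli, 3.92, 1.54 and 2.62 with IFN-γ and 2.19, 5.48 and 5.94 in joint libraries. The stimulated groups overlapped, below all unstimulated libraries. The departure was 3.58 ± 0.75 (adjusted p 0.00912), with 14 near-identical stretches elsewhere. Iglc3, an antibody light chain gene of B cells, departed by 3.37 ± 0.74 (adjusted p 0.0115), with an antisense gene and 1 near-identical stretch. Gm31520, a transcribed pseudogene, departed by 3.25 ± 0.56 (adjusted p 0.0018). The uncharacterized gene A430078G23Rik, with 5 near-identical stretches, departed by 3.07 ± 0.84 (adjusted p 0.0421), lost with library totals (0.0558) and without unstimulated a (0.114), E. coli 1 (0.107), E. coli 2 (0.0869), IFN-γ 1 (0.0962), IFN-γ 2 (0.0614), IFN-γ 3 (0.0971) or joint 2 (0.277). Espl1, the protease that separates chromosomes, had a positive departure (adjusted p 0.02), lost without unstimulated a (0.0592), IFN-γ 1 (0.0511), IFN-γ 3 (0.0573), joint 1 (0.0581) or joint 2 (0.102), and no size is given because the IFN-γ libraries held at most 3 counts.

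Other large departures came from Pla2g16, a phospholipase, at 1.39 ± 0.28 (adjusted p 0.00758), more than additive. Rasa4, which turns off RAS, was more than additive at 1.53 ± 0.37 (adjusted p 0.0214), lost without unstimulated a (0.0732), unstimulated c (0.0605), E. coli 1 (0.073), E. coli 2 (0.0869) or IFN-γ 2 (0.0579), and it overlaps 1 gene on each strand. Fxyd2, a regulator of the sodium pump, had a positive departure opposite to the sum (adjusted p 0.0211), lost without unstimulated a (0.119), unstimulated c (0.0543) or E. coli 1 (0.0696), and no size is given because the E. coli libraries held at most 1 count. Of the 89 called genes that the naming rule gives, 55 kept their call in every log2 fit with no fold threshold and 18 lost it in at least 6 of the 12 fits that leave out 1 library.

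Markers of B cells, a cell type the B220 beads were meant to remove, moved with the interaction. Of 8 markers 5 were tested, and all 5 were called positive with a median departure of 2.68. Their summed level was 222, 198 and 119.8 CPM unstimulated, 42.0, 45.8 and 78.0 with E. coli, 102, 61.5 and 58.2 with IFN-γ and 125, 137 and 131 in joint libraries. It was highest in unstimulated libraries a and b, and the joint libraries lay above all single-stimulus ones, which overlapped each other. Ighm, the heavy chain of IgM, was the most abundant at 128, 105 and 64.0, 15.9, 25.8 and 43.9, 62.1, 32.3 and 29.4 and 66.5, 61.9 and 66.0 CPM in the same order of groups. Cd79a, part of the B cell receptor, departed by 2.32 ± 0.35 (adjusted p 0.000644), with 1 near-identical stretch elsewhere. None of the 8 was at or under 3 counts in every library. In bulk RNA, fewer cells of a type and less RNA per cell cannot be told apart. Their part in the positive departures was not tested.

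**Figure D3:**
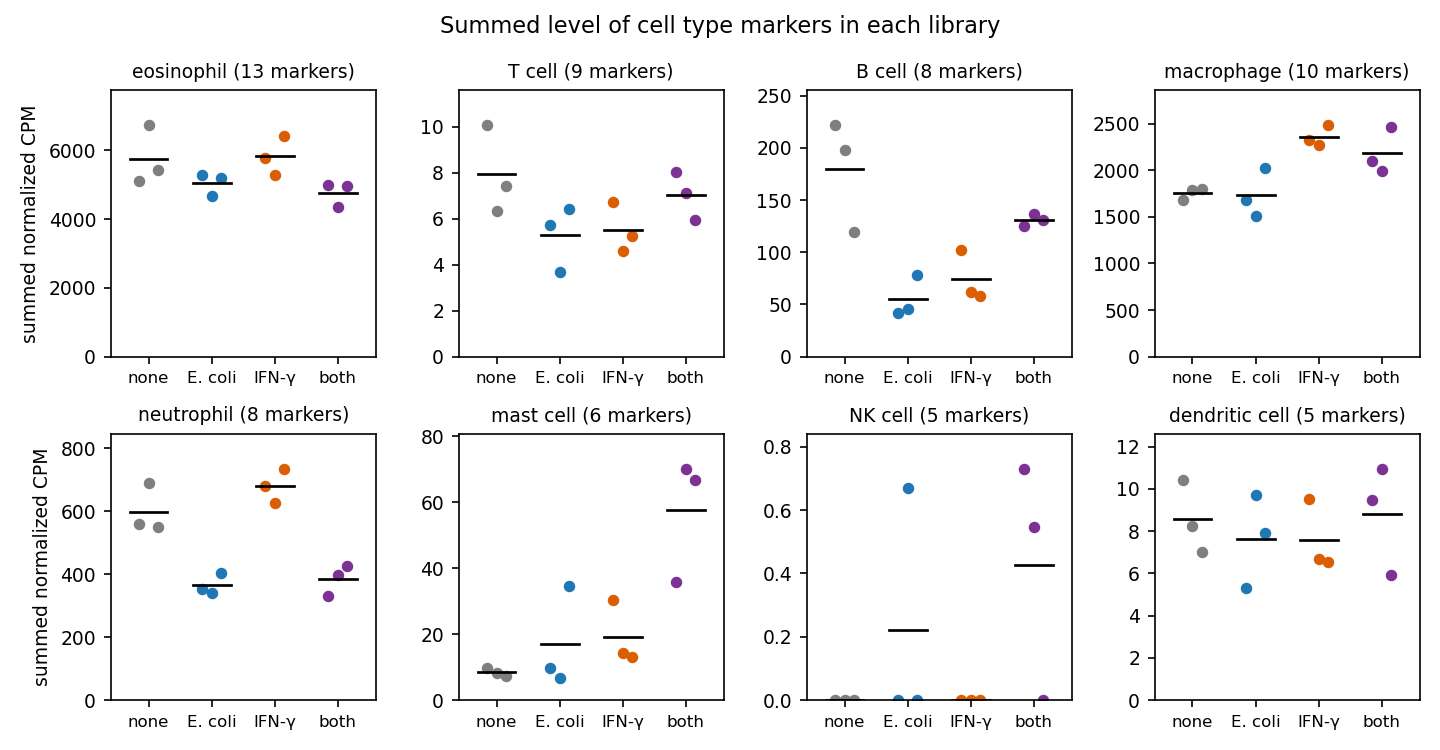
Points give the summed CPM of the markers of 8 cell types in each of the 12 libraries, by group. B cell markers are higher with both stimuli than with either, and the eosinophil sum lies between 4365 and 6729.

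Other cell types gave fewer calls. For neutrophils 3 of 8 markers were tested and 1 was called, S100a8 at -2.55 ± 0.57 (adjusted p 0.0126), lost without unstimulated a (0.0585). Their summed level was 558, 688 and 550.5 CPM unstimulated, 353, 341 and 403 with E. coli, 680.1, 625 and 735 with IFN-γ and 331, 397 and 425 in joint libraries. Retnlg carried most of this sum, with means of 584, 287, 615 and 312 CPM in the same order of groups, so the sum mainly follows 1 gene. In all, 3 markers were at or under 3 counts throughout. Mast cell markers summed to 9.69, 8.24 and 7.43 CPM unstimulated, 9.79, 6.69 and 34.6 with E. coli, 30.2, 14.3 and 13.1 with IFN-γ and 35.8, 70.1 and 66.6 in joint libraries, highest with both and higher in E. coli 3 than in its replicates. Neither of the 2 tested was called by edgeR, DESeq2 or limma-voom, and 0 had an unadjusted p under 0.05. T cell markers summed to no more than 10.06 CPM, the 5 NK cell markers were at or under 3 counts, and dendritic cell markers summed to no more than 10.96 CPM.

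**Figure D4:**
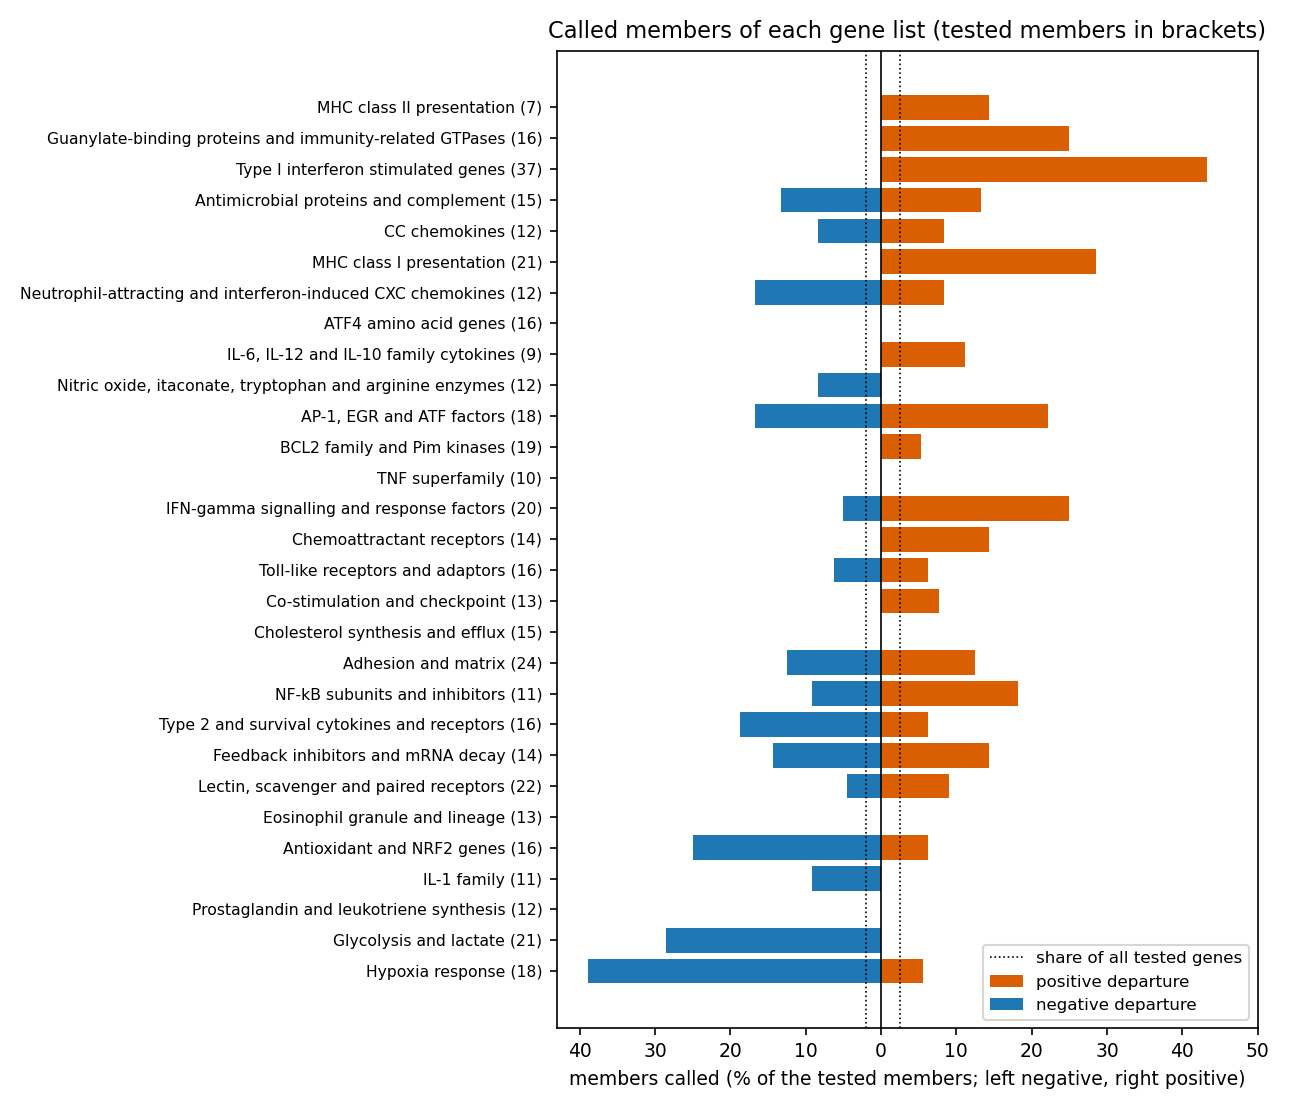
Bars give the percent of tested genes of each list that were called for an interaction, split by the sign of the departure, with dotted lines at the shares of all tested genes, 2.04% negative and 2.58% positive. Hypoxia genes (44.4%) and type I interferon stimulated genes (43.2%) have the longest bars, of opposite sign but for 1 hypoxia gene.

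Several further lists had a share of calls above the 4.62% of all tested genes. Of 24 adhesion and matrix genes 3 were positive and 3 negative (25.0%). Without unstimulated a each count was 1, without E. coli 1, E. coli 2 or IFN-γ 2 the positive and without joint 2 the negative count was 1. Cd9, a tetraspanin that organizes membranes and overlaps an antisense gene, departed by -1.07 ± 0.23 (adjusted p 0.0115) and by -1.64 with collision-corrected counts, having up to 3370 counts. Thbs1, a matrix glycoprotein that overlaps an antisense gene, departed by -0.92 ± 0.22 (adjusted p 0.0176) and exceeded the linear sum by 355.1 CPM, a call lost with collision-corrected counts (0.116) and without unstimulated a (0.0557), IFN-γ 3 (0.0509) or joint 2 (0.0554). Fn1, fibronectin, which overlaps an antisense gene, departed by 1.72 ± 0.40 (adjusted p 0.0173), lost without unstimulated a (0.0679), E. coli 1 (0.0588) or IFN-γ 2 (0.0516). Timp2, an inhibitor of matrix proteases, departed by 1.06 ± 0.28 (adjusted p 0.0327), lost with library totals (0.0602) and without unstimulated a (0.117), unstimulated c (0.0592), E. coli 1 (0.1), E. coli 2 (0.108), IFN-γ 2 (0.061), IFN-γ 3 (0.102), joint 2 (0.106) or joint 3 (0.0601).

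Of 22 lectin, scavenger and paired receptors 2 were positive and 1 negative (13.6%). Siglece, an inhibitory lectin, departed by 1.66 ± 0.41 (adjusted p 0.0254), lost with limma-voom (0.0686) and without unstimulated a (0.0738), E. coli 2 (0.0587), IFN-γ 2 (0.0676), IFN-γ 3 (0.089) or joint 2 (0.0657). The first count was 1 without unstimulated a, E. coli 2, IFN-γ 2, IFN-γ 3 or joint 2, and the second was 2 without unstimulated c, IFN-γ 2 or joint 3. Antimicrobial and complement genes gave 2 positive and 2 negative calls of 15 (26.7%), with a median of 0.55 that became 0.895 without E. coli 3. Ifitm1, which blocks virus entry, departed by -2.06 ± 0.22 (adjusted p 2.3e-05), exceeded the linear sum by 107.0 CPM, has 1 near-identical stretch and had up to 3894 counts, close to the ceiling. Ifitm6, of the same family, departed by 2.75 ± 0.59 (adjusted p 0.0107). Ifitm3, also of it, departed by 0.76 ± 0.19 (adjusted p 0.0221), lost without E. coli 1 (0.083), E. coli 2 (0.0822), IFN-γ 1 (0.0717), IFN-γ 2 (0.0755) or joint 1 (0.0506). The positive count was 4 without E. coli 3 and 1 without E. coli 1, E. coli 2, IFN-γ 1 or IFN-γ 2, and the negative count was 1 without unstimulated a. Feedback and mRNA decay genes gave 2 and 2 of 14 (28.6%), with 1 positive without any 1 of 9 libraries, all but E. coli 3, IFN-γ 3 and joint 1, and 1 negative without IFN-γ 1.

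Single positive calls came from 9 genes of the IL-6, IL-12 and IL-10 families (11.1%), 13 of co-stimulation (7.69%) and 19 of a survival list of BCL2, Pim and caspase genes (5.26%), and 2 from 14 chemoattractant receptors (14.3%). With 4.62% of all tested genes called, counts this small say little about these lists. The call of the survival list was Casp4, a caspase that belongs to neither the BCL2 nor the Pim family. Cd48, an adhesion molecule of leukocytes, was the co-stimulation call at 0.76 ± 0.17 (adjusted p 0.0123). Ccr7, which guides cells to lymph nodes, departed by 1.80 ± 0.47 (adjusted p 0.0332), lost without unstimulated b (0.0768), unstimulated c (0.0745), E. coli 1 (0.116), E. coli 2 (0.12), IFN-γ 2 (0.0817), IFN-γ 3 (0.08) or joint 2 (0.117). Ccrl2, which binds chemerin, departed by 0.95 ± 0.25 (adjusted p 0.0308), lost without unstimulated a (0.0678), unstimulated b (0.0561), unstimulated c (0.0797), E. coli 1 (0.109), E. coli 2 (0.117), IFN-γ 1 (0.0836), IFN-γ 2 (0.0821), IFN-γ 3 (0.0505), joint 2 (0.0658) or joint 3 (0.0517). These small counts also depend on single libraries. The IL-6 group had 0 without unstimulated a, unstimulated c, E. coli 2, IFN-γ 1 or IFN-γ 2. Co-stimulation had 4 without E. coli 3 or joint 1 and a negative call without unstimulated c. The survival list had 3, Casp4 among them, without E. coli 3 and 2 without IFN-γ 2 or joint 3. The chemoattractant receptors had 0 without unstimulated c, E. coli 1, E. coli 2, IFN-γ 2, IFN-γ 3 or joint 2, 1 without unstimulated a, unstimulated b, IFN-γ 1 or joint 3, and a negative call without unstimulated b, IFN-γ 3 or joint 3. Hdc was the negative call among 12 genes of nitric oxide and amino acid enzymes (8.33%).

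In 5 lists edgeR called no gene. TNF superfamily genes (10 tested) held 6 with an unadjusted p under 0.05, and 0 called by DESeq2 or limma-voom. Prostaglandin and leukotriene genes (12 tested, median -0.25, but -0.405 without unstimulated b and -0.53 with collision-corrected counts) held 5, with 2 called by DESeq2 and 1 by limma-voom. Genes of cholesterol synthesis and efflux (15 tested) held 2, and none was called by the other tools. Amino acid genes driven by ATF4 (16 tested) held 2, with 1 called by DESeq2 and 0 by limma-voom. Eosinophil granule and lineage genes (13 tested) held 2, and 0 were called by the other tools. Leaving out unstimulated b or IFN-γ 3 gave 1 call in the TNF superfamily, and leaving out unstimulated a or E. coli 3 gave 1 among the ATF4 genes. Prostaglandin and leukotriene genes had 1 call without unstimulated b, IFN-γ 3 or joint 1 and 2 without joint 3.

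Each group has 3 libraries. The interaction depends on the log2 scale. On the linear scale 25 of the 457 called departures change sign, 23 of them among the 202 negative ones, and 102 called genes were more than additive, 234 less and 121 opposite. Scaling matters as well: with library totals in place of TMM the median effect over all genes was -0.21 for IFN-γ, -0.29 for both and -0.051 for the departure. Protein, cell number and survival were not analysed here, and a single time point and dose of each stimulus were used.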

How the data were processed

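Whole-number counts per Ensembl gene, which the authors deposited without normalization, were read for 12 CEL-Seq2 libraries (GRCm38; TopHat2 2.1.0 and HTSeq 0.6.1, with fastp 0.20.1 and STAR 2.7.2a also named). Of the counts, 18.9% to 37.6% fell on no feature. Symbols matched 54079 of 55029 genes (98.3%), and positions are from GENCODE M21 on GRCm38. R 4.3.3 was used with edgeR 4.0.16 (filterByExpr, TMM, quasi-likelihood test across all genes, Benjamini-Hochberg, adjusted p under 0.05, no fold threshold), limma 3.58.1 and DESeq2 1.42.0. One model held 4 group means, and the contrast was (both - IFN-γ) - (E. coli - unstimulated). The members and lists were chosen with earlier results of these data known. Named genes are the 5 called genes with the largest departure (group mean of at least 5 CPM) in each of 5 forms, up to 4 called members of each list, 15 genes of the study and called cell type markers. Others are marked as chosen after their values were seen.

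Near-identical stretches were searched among GENCODE M21 transcripts of other genes at 95% identity over at least 200 bases. Alternatives were DESeq2 size factors, library totals, the DESeq2 Wald test, limma-voom, no filter, a mean of at least 20 counts, a departure of at least 1, leaving out each library, replicate number of the stimulated libraries as a block, collision-corrected counts and the linear scale. The 6 libraries of unstimulated d to f and IL-4 were not used here.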

Additional observations from a re-analysis of the deposited data

Results flagged for a closer look

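For 29 genes the effect of E. coli had opposing signs without and with IFN-γ, each passing the test: 17 were lowered by E. coli alone and raised in the presence of IFN-γ, and 12 the other way. Tlr4 went from 0.75 alone to -0.84 with IFN-γ, and Gpnmb from -2.49 to 0.71. The 29 became 14 without E. coli 1 and 33 without E. coli 3. The cause was not tested.

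For 47 genes the effect of IFN-γ had opposing signs without and with E. coli: 31 were lowered by IFN-γ alone and raised in the presence of E. coli, and 16 the other way. Tiam1 went from 1.20 to -1.67 and Fos from -0.96 to 0.91. The 47 became 22 without E. coli 2 and 52 without E. coli 3. In 4 genes, Cd79a, Cd79b, Egr1 and Ms4a1, each effect was reversed by the other stimulus; 3 of these are B cell markers. The 4 became 1 without E. coli 1, IFN-γ 3 or joint 3 and with library totals or the DESeq2 Wald test, and 2 without unstimulated a, IFN-γ 1 or joint 2 and with a mean of at least 20 counts.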

How the results depend on the processing

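Each library was left out in turn, and the cause of any change was not tested. The 457 called genes ranged from 266 (without unstimulated a) to 562 (without E. coli 3), the positive departures from 138 (without E. coli 2) to 355 (without E. coli 3) and the negative ones from 112 (without unstimulated a) to 276 (without joint 3). More than additive genes ranged from 36 (without E. coli 2) to 94 (without E. coli 3), less than additive ones from 150 (without unstimulated a) to 289 (without joint 3) and opposite ones from 71 (without unstimulated a) to 199 (without E. coli 3). No called departure changed sign in any log2 fit.

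The count was 454 with DESeq2 size factors, 492 with library totals, 448 with the DESeq2 Wald test, 460 with limma-voom and 461 with a mean of at least 20 counts. With no filter it was 630, of which 316 were negative and 106 more than additive. Collision-corrected counts gave 522. Asking for a departure of at least 1 left 245, with 157 positive, 88 negative, 24 more, 143 less and 78 opposite.

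With the replicate number of the stimulated libraries as a block, 589 genes were called, 453 of them among the 457. The numbers are not known to mark shared mice or days: 4 of 9 same-numbered pairs had a correlation of residuals over 0.1, with a range from -0.045 to 0.331 and a mean of 0.109.

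On the linear scale 25 of the 457 called departures changed sign, 13 of them of genes that the naming rule gives: Ankrd37 (23.9 CPM), Ccl3 (813.9), Cxcl3 (191.9), Egln3 (157.7), Gbp8 (-76.2), Hdc (185.4), Ifitm1 (107.0), Maff (49.25), Mif (13.82), Ppbp (9.578), Slc2a1 (14.98), Slc7a11 (112.8) and Thbs1 (355.1). Of the genes under that rule that were not called, 3 also had a linear departure of the other sign, beyond the spread of their groups.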
